A study of Mus musculus with 4 samples.

Results

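Fibroblasts make fibrillar collagen in steps that each need a dedicated enzyme or chaperone, and the RNA of 10 such genes is described here. They are the lysyl oxidases *Lox*, *Loxl1*, *Loxl2* and *Loxl3*, the lysyl hydroxylases *Plod1* and *Plod2*, the prolyl 4-hydroxylase alpha subunits *P4ha1*, *P4ha2* and *P4ha3*, and the collagen chaperone *Serpinh1*. They were chosen by gene symbol for their roles, by a rule that uses no measured value but that was set with earlier results of these data known, and all 10 were found among the 23924 genes of the expression matrix. RNA-seq had been performed on tail tip fibroblasts (TTF) to compare cells with and without an autosomal transgene that holds *Xist* and more of the X-inactivation center (*Xic*). The mice were of the line C57BL/6J-TgBAC8-2087. Hemizygous Tg2087/+ males gave the transgenic (TG) cells and their +/+ male littermates gave the wildtype (WT) cells, with 2 libraries per genotype. The cells of both genotypes had been immortalized with SV40 large T and were tetraploid, they were grown in the same serum-containing medium, and transgenic *Xist* was under its own promoter. Whether both libraries of a genotype are from different mice or cultures is not stated in the labels. The p-values therefore measure only the spread between these libraries, which may be technical.

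A collagen chain is modified while it is being made. In the endoplasmic reticulum, prolyl 4-hydroxylase hydroxylates prolines, which gives the triple helix its thermal stability, and lysyl hydroxylases hydroxylate lysines. *Serpinh1* encodes HSP47, a chaperone that binds the folded procollagen helix until it leaves that compartment. After secretion and trimming, the copper-dependent lysyl oxidases turn lysines and hydroxylysines into aldehydes, from which the covalent crosslinks of collagen and elastin fibres form.

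Levels are given in FPKM, a fragment count divided by gene length and by library size, so levels of different genes can be set side by side. The libraries held between 9465712 and 14639946 reads, as worked out from the FPKM ratios, and the depth of WT 2 was 1.55 times that of WT 1, the shallowest. *Xist* stood at 0 and 0.108 FPKM in the WT libraries and at 2.31 and 2.28 in the TG libraries, so the transgene was seen in the libraries labelled TG. TG was compared with WT by limma on log2(FPKM + 0.5) over 11524 genes with Benjamini-Hochberg adjustment. A gene was called when its adjusted p was under 0.01 and its log2 fold change was at least 1 in size. By this rule *Xist* itself was not called, at a log2 fold change of 2.34 (limma adjusted p = 0.0112). The calls took 54 genes down and 70 genes up, and the median log2 fold change over all tested genes was 0.07. Of the fibroblast markers, *Vim*, *Thy1*, *Col1a1* and *Fn1* were abundant, whereas *Lum* was listed at 0 in all libraries and *Dcn* did not exceed 0.878 FPKM. *Pdgfra* was also low, at 0.0999 and 0.307 FPKM in WT and 0.823 and 1.13 in TG. *Thy1*, *Col1a1* and *Fn1* were lower in both TG libraries and *Vim* was higher, with none of these called. Of 21 markers of keratinocytes, endothelium, leukocytes, skeletal muscle, melanocytes, adipocytes and Schwann cells, 20 had a mean under 1 FPKM, the exception being *Cd68*. The 4 cartilage and bone markers summed to 7.54 and 8.65 FPKM in WT and 5.37 and 6.55 in TG, most of it *Runx2*, and none was called.

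All 10 enzyme genes were expressed and tested, and 1 of them, *Loxl2*, was called down in TG, where 0.469% of all tested genes were. None was called up, by limma or by the count-based voom fit, against 0.607% of all tested genes by limma, and voom called 1.10% of its genes up. *Loxl2* was the only one of the 10 with an unadjusted p under 0.05, which 19.6% of all tested genes had. It also stayed the single call at an adjusted p under 0.05, where 1.05% of all tested genes were called down and 1.99% up. The other 9 genes had log2 fold changes between -0.53 and 0.32 with adjusted p-values between 0.326 and 0.972. For 8 of these 9 the 95% interval of the log2 fold change lay within 1 of 0, so a change of the size used for calls was outside the interval. Both TG libraries lay below both WT libraries for 3 genes (*Loxl2*, *Plod1* and *Serpinh1*), a pattern found in 20.3% of all tested genes. Both lay above for *P4ha2* alone, a pattern found in 30.2% of all tested genes, and the libraries of the other 6 genes overlapped. The median log2 fold change of the 10 genes was -0.11. In bulk RNA, fewer cells of one kind and less RNA per cell cannot be told apart, and this holds for every value given here.

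**Figure D1:**
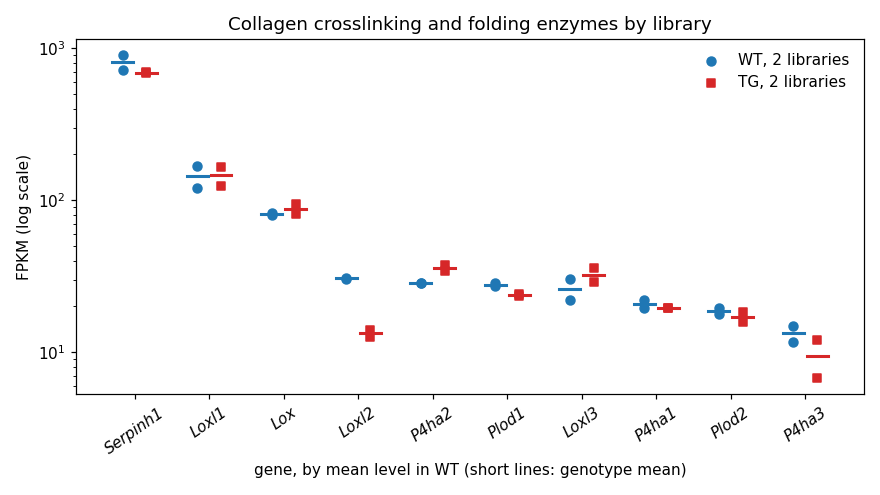
Level of each of the 10 enzyme genes in FPKM on a log scale, with the genes ordered by their mean in WT, one point for each library (circles, 2 WT; squares, 2 TG) and a short line at the mean of each genotype. The genotypes do not overlap for *Loxl2*, with WT libraries at 30.3 and 30.9 and TG libraries at 14.0 and 12.6, and the levels run from 899 for *Serpinh1* down to 6.75 for *P4ha3*.

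The levels in WT spanned a wide range. *Serpinh1* stood first at 808 ± 128 FPKM (SD, n = 2), above 99.5% of all tested genes, followed by *Loxl1* at 144 ± 32.9 and *Lox* at 81.3 ± 1.56, and the libraries of these first genes did not overlap each other. *Loxl2*, *P4ha2*, *Plod1* and *Loxl3* followed with means between 26.2 and 30.6 FPKM, and since the WT libraries of *Loxl3* lay at 30.4 and 22.0, its place among these neighbours was not set beyond the spread. *P4ha1* at 20.8 ± 1.98 and *Plod2* at 18.7 ± 1.20 overlapped, and *P4ha3* was the lowest at 13.3 ± 2.26. In TG the order was the same for the first genes, but *Loxl2* stood the ninth at 13.3 ± 0.946 FPKM, below *P4ha1* and *Plod2* in every TG library, where in WT it had been above both in every library.

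*Loxl2* encodes a secreted lysyl oxidase that carries scavenger receptor cysteine-rich domains ahead of its catalytic domain and is known for crosslinking collagen, including the collagen IV of basement membranes. It was measured at 30.3 and 30.9 FPKM in WT and at 14.0 and 12.6 in TG. Both TG libraries were below both WT libraries, and the gap between the genotypes was much wider than that between libraries of one genotype. The reads behind these levels were 1443, 2278, 839 and 704 in the same order, and the exact Poisson 95% intervals, which cover counting error only, ran from 28.8 to 32.2 FPKM over the WT libraries and from 11.7 to 15.0 over the TG libraries. The mean level fell by 56.5%, and the log2 fold change was -1.17 (SE 0.19, 95% interval -1.58 to -0.76, limma adjusted p = 0.00751). An exact permutation test of 2 against 2 libraries cannot give a p under 0.33. The call was lost with each library left out in turn, where the lone library of a genotype was assumed to vary like the other genotype's. The adjusted p was 0.0215 without TG 1, 0.0322 without TG 2, 0.0630 without WT 1 and 0.110 without WT 2, with log2 fold changes between -1.24 and -1.10. The call was also lost in the fit of all genes above 0 (0.0565), in the fit without a variance trend (0.0442) and with the replicate block (0.0440). On the recovered reads, voom gave -1.27 with an adjusted p of 2.65e-05, in a fit that called 1.31% of its genes down.

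Of 3 smooth muscle markers 2 were tested and 1 was called, and their sum was lower in both TG libraries, as was *Loxl2*. The sum of *Acta2*, *Cnn1* and *Myh11* was 4731 and 5458 FPKM in WT and 2019 and 2229 in TG. *Cnn1*, calponin of the contractile apparatus, was called down, with a log2 fold change of -1.78 (adjusted p = 0.00114), a call lost without WT 1 (0.0413), without WT 2 (0.0446), in the fit of all genes above 0 (0.0526), without the variance trend (0.0218) and with the replicate block (0.0171). *Acta2*, smooth muscle actin, was at 4031 and 4797 FPKM in WT and 1851 and 1996 in TG and was not called (log2 fold change -1.19, adjusted p = 0.0139). *Myh11*, the myosin heavy chain that defines mature smooth muscle, was at 0, 0.179, 0.0647 and 0.376 FPKM, so the sum was made up of the other 2 genes, which cultured fibroblasts also express. The sum of the 10 fibroblast markers was also lower in both TG libraries. It was 4910 and 4624 FPKM in WT and 3944 and 4223 in TG. None of these markers was called, and *Vim*, *Pdgfra* and *Dcn* were higher in both TG libraries. The part of these changes in the level of *Loxl2* was not tested.

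*Loxl2* lies on chr14:69608692-69695834 of GRCm38 (mm10), on the plus strand, over 87.1 kb. The gene models *Gm27177* and *Gm37513* lie opposite to it and were not analysed here. The libraries kept the strand, but the strand setting of the authors' counting is not given in the sources used here, so reads of *Loxl2* and of such opposite transcripts cannot be told apart. The paralogs of a family also share stretches of sequence. The longest identical runs between *Loxl2* and another member are printed to show how long such stretches are. Both lie in coding sequence, in exon 11 of 14 of *Loxl2*, and are written in lower case, 5′ to 3′ on the strand of the transcripts, as read from the reference transcripts of GRCm38.
*Loxl1* (chr9:58293626-58293653, minus strand, exon 4 of 7) and *Loxl2* (chr14:69689101-69689128, plus strand): cacaaggccagcttctgcctggaggaca
*Loxl2* (chr14:69689080-69689105, plus strand) and *Loxl3* (chr6:83050168-83050193, plus strand, exon 11 of 14): ggcaccaaggtggctgagggccacaa
These runs are 28 and 26 bases long. The cDNA was selected by size and sequenced as read pairs, from fragments far longer than these runs. Whether any reads were shared between these genes was not tested. The longest run in the family, between *Lox* and *Loxl1*, has 32 bases, and those of *Lox* with *Loxl2* and with *Loxl3* have 14 each. Among the other families the longest runs were 15 bases for *Plod1* with *Plod2* and 16 for *P4ha1* with *P4ha2*. None of the 10 genes lies on the X chromosome, which holds the endogenous *Xic*. The authors' DNA FISH linked the transgene to chromosome 1, where none of the 10 genes lies either. *Loxl1* and *Plod2* lie on chromosome 9, which the authors counted with chromosome 1 as most affected, and neither gene was called. The tested genes next to *Loxl2* were looked up after its values had been seen. *R3hcc1*, which starts 1.47 kb beyond its end, was measured at 94.5, 74.1, 52.1 and 60.1 FPKM in WT 1, WT 2, TG 1 and TG 2. Its TG libraries were both below its WT libraries, as for 20.3% of all tested genes, and its log2 fold change was -0.58 (adjusted p = 0.127). The next tested genes on that side, *Chmp7* and *Tnfrsf10b*, had log2 fold changes of -0.06 and -0.17, and on the other side *Slc25a37*, 323 kb away, had -0.15, with no call among them.

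No other lysyl oxidase was called. *Lox*, the founding member of the family, crosslinks fibrillar collagens and elastin, and was measured at 80.2 and 82.4 FPKM in WT and at 93.6 and 81.6 in TG. The genotypes overlapped, and the log2 fold change was 0.10 (SE 0.17, 95% interval -0.28 to 0.49, adjusted p = 0.793). *Loxl1*, known for elastic fibre maintenance, was the most abundant lysyl oxidase, at 167 and 121 FPKM in WT and at 166 and 124 in TG. Here the first library of each genotype was high and the second low, by 0.47 in WT and 0.42 in TG on the log2 scale, while the genotypes differed by a log2 fold change of 0.02 (SE 0.22, 95% interval -0.46 to 0.50, adjusted p = 0.972). *Loxl3*, which like *Loxl2* carries scavenger receptor domains, was measured at 30.4, 22.0, 35.9 and 28.9 FPKM in WT 1, WT 2, TG 1 and TG 2. The genotypes overlapped, again with the first library of each above the second. Its log2 fold change was 0.31 (SE 0.21, 95% interval -0.16 to 0.79, adjusted p = 0.472). The 3′ end of *Loxl3* overlaps the oppositely transcribed *Htra2*, so its level holds the same doubt over strand. The gene models *AC161119.1* and *Gm38391* lie opposite to parts of *Lox* and *Plod2*, so the levels of *Lox* and *Plod2* hold this doubt too.

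Since FPKM is per length, the make-up of the family could be followed within each library. *Loxl4*, the remaining member, was included in the sum and made up between 3.04% and 3.61% of it. The summed level of the 5 lysyl oxidases was 318 and 264 FPKM in WT and 319 and 257 in TG, so the family as a whole did not separate by genotype. Within it, *Loxl2* made up 9.52% and 11.7% in WT and 4.38% and 4.92% in TG, which left both TG libraries below both WT libraries. *Loxl3* made up 9.54% and 8.31% in WT and 11.2% in each TG library. The ratio of *Loxl2* to *Loxl3*, which also carries scavenger receptor domains, was 0.998 and 1.41 in WT and 0.389 and 0.438 in TG. In both TG libraries *Loxl3* was the more abundant of the pair, which in WT held for WT 1 by a small margin and not for WT 2. Set against *Lox*, *Loxl2* gave ratios of 0.378 and 0.375 in WT and 0.149 and 0.155 in TG.

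**Figure D2:**
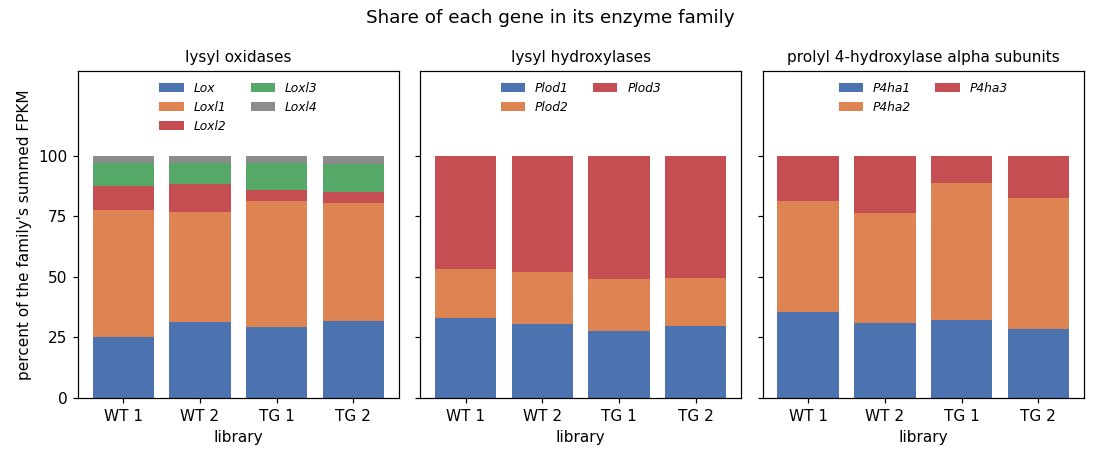
Share of each gene in the summed FPKM of its enzyme family, in percent, for the lysyl oxidases, the lysyl hydroxylases and the prolyl 4-hydroxylase alpha subunits, one stacked bar for each of the 4 libraries. The *Loxl2* band is 9.52% and 11.7% in WT and 4.38% and 4.92% in TG, the *Plod3* band is 46.6% and 47.9% in WT and 51.1% and 50.4% in TG, and the *P4ha2* band is 45.6% and 45.5% in WT and 56.7% and 54.2% in TG. The FPKM level of *Plod3* overlapped between the genotypes.

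Neither lysyl hydroxylase was called. *Plod1*, which hydroxylates lysines of the collagen helix, was measured at 28.4 and 27.3 FPKM in WT and 24.0 and 23.4 in TG. Both TG libraries were lower, by a log2 fold change of -0.23 (SE 0.18, 95% interval -0.63 to 0.17, adjusted p = 0.543), which did not pass the test. *Plod2* hydroxylates the telopeptide lysines that give rise to the stable crosslinks of bone and scar, and was measured at 17.8 and 19.5 FPKM in WT and 18.3 and 15.7 in TG. The genotypes overlapped, with a log2 fold change of -0.13 (SE 0.19, 95% interval -0.56 to 0.30, adjusted p = 0.762). *Plod3*, the family member that also adds sugars to hydroxylysine, was the most abundant and made up 46.6% and 47.9% of the family in WT and 51.1% and 50.4% in TG. *Plod1* made up 32.8% and 30.4% in WT and 27.7% and 29.6% in TG. The genotypes did not overlap in either share, whereas the share of *Plod2*, 20.6% and 21.8% in WT and 21.1% and 19.9% in TG, overlapped. The level of *Plod3* itself also overlapped, at 40.4 and 42.9 FPKM in WT and 44.3 and 39.8 in TG. Its log2 fold change was 0.01 (limma adjusted p = 0.981), so its higher share in TG is no higher level. The summed level of the family was 86.7 and 89.7 FPKM in WT and 86.6 and 78.8 in TG.

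The prolyl 4-hydroxylase alpha subunits each form the catalytic part of the enzyme together with the shared beta subunit P4hb, protein disulfide isomerase. *P4ha1*, the major subunit in most cells, was measured at 22.2 and 19.4 FPKM in WT and 19.4 and 19.6 in TG. Its genotypes overlapped, with a log2 fold change of -0.09 (SE 0.19, 95% interval -0.51 to 0.33, adjusted p = 0.845). *P4ha2*, the second subunit, was measured at 28.4 and 28.7 FPKM in WT and 34.3 and 37.4 in TG. Both TG libraries were above both WT libraries, and this was the highest log2 fold change of the 10 genes at 0.32 (SE 0.18, 95% interval -0.07 to 0.71), but it was not called (adjusted p = 0.360). *P4ha3*, the third and least expressed subunit, was measured at 11.7 and 14.9 FPKM in WT and 6.75 and 12.1 in TG. TG 1 was low and TG 2 lay within the WT range, so the genotypes overlapped. This was the least deeply read of the 10 genes, with 178 reads in TG 1, whose exact Poisson interval of 5.79 to 7.82 FPKM did not reach the interval of 10.8 to 13.6 in TG 2. The log2 fold change of -0.53 had the widest interval of the 10 (SE 0.27, -1.13 to 0.08, adjusted p = 0.326) and depended on the libraries, at -0.13 without TG 1 and -0.92 without TG 2.

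Within this family *P4ha2* made up 45.6% and 45.5% in WT and 56.7% and 54.2% in TG, and its ratio to *P4ha1* was 1.28 and 1.48 in WT and 1.77 and 1.91 in TG. *P4ha1* made up 28.3% to 35.6% of the family over the 4 libraries. *P4ha3* made up 18.8% and 23.7% in WT and 11.2% and 17.5% in TG. The summed level of the 3 subunits was 62.4 and 63.1 FPKM in WT and 60.4 and 69.1 in TG. P4hb RNA was 7.71 to 11.0 times that sum, with overlap of the genotypes.

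RefSeq promoter windows of GRCm38.p6 were matched for 5 of the 10 genes (*Plod1*, *P4ha1*, *P4ha2*, *P4ha3* and *Serpinh1*), and not for *Lox*, *Loxl1*, *Loxl2*, *Loxl3* and *Plod2*. Those of the 3 alpha subunits are printed, since these paralogs encode alternative subunits of one enzyme and were present at different levels. Each is the 250 bases before the start of a RefSeq transcript, on the gene's own strand. The gene records of *P4ha1* and *P4ha3* begin earlier, at 59323197 and 100285489, so the windows of these genes end inside the gene. For *P4ha2* the RefSeq record begins after the window, but a GENCODE transcript has bases of its first exon before it, at 54100126-54100137. Distances are given to the transcript start at the end of each window. Capitals mark GGGCGG, the GC box, with its complement CCGCCC, and ACGTG, the core of the hypoxia response element, with its complement CACGT.
*P4ha1* (chr10:59323046-59323295, plus strand): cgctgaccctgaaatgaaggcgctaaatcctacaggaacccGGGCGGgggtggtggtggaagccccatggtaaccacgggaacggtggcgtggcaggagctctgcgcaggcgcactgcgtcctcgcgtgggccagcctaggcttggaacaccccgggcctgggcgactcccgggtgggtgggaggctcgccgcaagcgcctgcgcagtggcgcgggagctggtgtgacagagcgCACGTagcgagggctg
*P4ha2* (chr11:54100674-54100923, plus strand): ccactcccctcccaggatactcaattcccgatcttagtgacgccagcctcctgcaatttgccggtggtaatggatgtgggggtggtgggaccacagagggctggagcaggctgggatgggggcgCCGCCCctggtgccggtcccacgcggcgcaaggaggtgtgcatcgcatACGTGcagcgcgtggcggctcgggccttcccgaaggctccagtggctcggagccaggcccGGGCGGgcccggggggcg
*P4ha3* (chr7:100285270-100285519, plus strand): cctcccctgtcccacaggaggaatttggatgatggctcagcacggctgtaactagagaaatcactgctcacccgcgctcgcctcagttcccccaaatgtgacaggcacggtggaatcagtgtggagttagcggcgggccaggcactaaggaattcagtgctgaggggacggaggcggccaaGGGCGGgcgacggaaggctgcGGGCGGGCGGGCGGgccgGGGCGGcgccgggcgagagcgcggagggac
All are rich in G and C, at 69.6%, 70.0% and 67.2%. ACGTG was found 78 bases before the start of *P4ha2* on the gene's strand, 16 bases before that of *P4ha1* and 171 bases before that of *Serpinh1* on the opposite strand, and not in the windows of *P4ha3* and *Plod1*, while 16.6% of the 32851 promoter windows in the table held it on either strand. GGGCGG was found in all 5 windows, against 32.7% of all, with 5 matches in *P4ha3* of which 3 overlap one another. TATAAA was found in *Plod1* alone, on the opposite strand, and CATTCC in none, against 12.4% and 12.6% of all windows. A match describes the letters and is no evidence of binding.

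*Serpinh1*, the HSP47 chaperone, was by far the most abundant of the 10 genes. It was measured at 899 and 717 FPKM in WT and at 682 and 696 in TG. Both TG libraries were below both WT libraries, but the WT libraries differed from each other by more than the distance from WT 2 to TG. The log2 fold change was -0.22 (SE 0.19, 95% interval -0.65 to 0.21, adjusted p = 0.589). With 17675 to 24105 reads per library, counting error was small beside this spread. *Serpinh1* and *P4ha3* both lie on chromosome 7, 0.932 Mb apart.

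**Figure D3:**
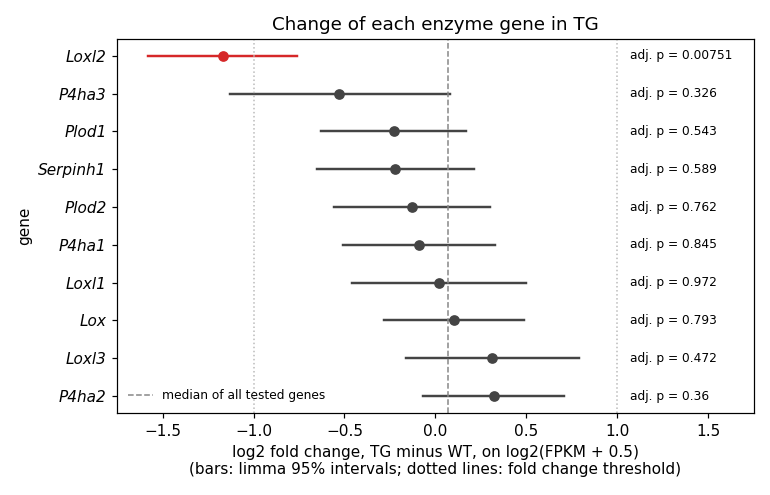
Log2 fold change of each enzyme gene, TG minus WT, on log2(FPKM + 0.5), with limma 95% intervals as bars, adjusted p-values at the right, dotted lines at the fold change used for calls and a dashed line at the median of all tested genes. Only *Loxl2*, at -1.17, is called, and the intervals of the other 9 include 0.

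The enzymes were then set beside their substrates. Of 10 genes for fibrillar collagens and elastin, 7 were tested and 0 were called by limma, with 4 at an unadjusted p under 0.05, while voom called *Col5a1* down. Their median log2 fold change was -0.44, and 5 of them had both TG libraries below both WT libraries, as had 20.3% of all tested genes. *Col5a1*, a chain of the collagen V that sets fibril diameter, had the lowest value at -0.97 (adjusted p = 0.0127), and *Col5a3* the highest at 0.03. *Eln*, the elastin that *Lox* and *Loxl1* crosslink, was listed at 0 in 3 libraries and at 0.0369 FPKM in WT 2. The level of *Serpinh1* per summed *Col1a1* and *Col1a2*, the chains of collagen I, was 0.689 and 0.652 in WT and 1.11 and 0.857 in TG. The level of *Lox* per the same sum was 0.0614 and 0.0749 in WT and 0.153 and 0.100 in TG. In both ratios the TG libraries were above the WT libraries, and the collagen I sum below the line was lower in both TG libraries, with *Col1a1* at 867 and 789 FPKM in WT and 407 and 539 in TG.

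Among 4 other lysine-modifying enzymes 3 were tested, from *Colgalt1* at -0.25 to *Loxl4* at 0.03, and their median was 0.01, with 0 at an unadjusted p under 0.05. The fourth, *Colgalt2*, was listed at 0 in all libraries. The 7 partners of prolyl hydroxylation had a median of -0.03. The lowest was *P3h1*, a prolyl 3-hydroxylase of the collagen helix, with 40.1 and 44.9 FPKM in WT and 26.8 and 23.3 in TG, a log2 fold change of -0.75 (adjusted p = 0.0485) and the only unadjusted p under 0.05 of this list. The highest was *P3h2*, at 0.54 (adjusted p = 0.521) from a level near 1 FPKM or less. Neither limma nor voom called any gene of these 2 lists.

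All 6 folding genes and all 8 export genes had log2 fold changes below 0, in the FPKM as deposited, under both rescalings of the libraries and in voom. The rescalings and voom use the same 4 libraries and lower the median of all tested genes, so they are no separate support. The share of all tested genes below 0 was not counted. The medians of the folding and export genes in the deposited FPKM were -0.36 and -0.29, where that of all tested genes was 0.07. Both TG libraries lay below both WT libraries for 3 folding genes and 5 export genes, against 20.3% of all tested genes. No folding or export gene was called by limma or voom. An unadjusted p under 0.05 was found for 3 folding genes and 1 export gene, against 19.6% of all tested genes. The folding genes ran from *Sparc*, a collagen-binding matrix protein, at -0.56 (adjusted p = 0.145) to the peptidyl-prolyl isomerase *Fkbp10* at -0.05. The export genes ran from the COPII coat gene *Sec23a* at -0.43 (adjusted p = 0.228) to *Sar1b* at -0.15. Of 8 procollagen processing genes 6 were tested, with a median of 0.02 and 3 at an unadjusted p under 0.05, and 0 were called by limma. *Tll1*, a tolloid proteinase that trims procollagen and activates *Lox* protein, was at 9.74 and 11.6 FPKM in WT and 4.32 and 3.98 in TG, a log2 fold change of -1.26 that limma did not call (adjusted p = 0.0137) and voom did. *Pcolce*, which enhances that proteinase reaction, had the highest value, with 470 and 451 FPKM in WT and 649 and 643 in TG, at 0.49 (adjusted p = 0.159).

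**Figure D4:**
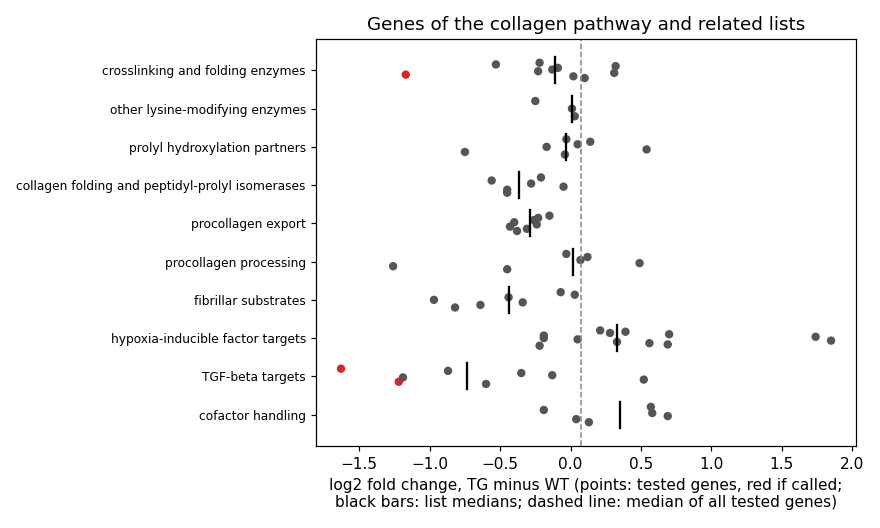
Log2 fold change, TG minus WT, of each tested gene (points, red where called) for the 10 crosslinking and folding enzymes and 9 lists of related genes, with black bars at the list medians and a dashed line at the median of all tested genes, 0.07. The folding and export genes all lie below 0, and *Loxl2*, *Ccn2* and *Postn* are the called genes.

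Several of the 10 genes are known targets of hypoxia-inducible factor or of TGF-beta, so lists of other targets were described beside them. The median log2 fold change of the 13 hypoxia-inducible factor targets was 0.33, with 10 above 0 and 9 above 0 under each of both rescalings and in voom. Both TG libraries lay above both WT libraries for 8 of them and below for 2, where the shares over all tested genes were 30.2% and 20.3%. None was called by limma or voom, and 5 had an unadjusted p under 0.05, against 19.6% of all tested genes. The lowest adjusted p of the list was that of *Egln3*, 0.0253 by limma at a log2 fold change of 1.74. It stood at 0.376 and 0.378 FPKM in WT and at 2.52 and 2.33 in TG. *Car9*, a membrane carbonic anhydrase, had the highest value at 1.85 (adjusted p = 0.0508), with 0.700 and 0.453 FPKM in WT and 5.79 and 1.85 in TG, and *Vegfa*, the vascular growth factor, had the lowest at -0.22 (adjusted p = 0.611). The members known as such targets (*Lox*, *Loxl2*, *Plod1*, *Plod2*, *P4ha1* and *P4ha2*) ran from -1.17 to 0.32.

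The 8 TGF-beta targets had a median of -0.74, with 7 below 0 under all of these scalings, and for 6 of them both TG libraries lay below both WT libraries, against 20.3% of all tested genes. *Postn*, periostin, a matrix protein that binds collagen, fell from 82.4 and 90.5 FPKM in WT to 28.2 and 27.0 in TG, a log2 fold change of -1.63 (adjusted p = 0.000855). *Ccn2*, connective tissue growth factor, fell from 605 and 590 FPKM to 259 and 252, a log2 fold change of -1.22 (adjusted p = 0.00435). The remaining 6 were not called in the deposited FPKM, although *Acta2* was called down by voom and by limma after quantile normalization, and the highest was *Tgfbi* at 0.52 (adjusted p = 0.321). The call of *Postn* was lost without WT 1 (0.0308) or WT 2 (0.0395), and that of *Ccn2* without any 1 library, with adjusted p-values from 0.0215 without TG 1 to 0.0655 without WT 2. This list shares *Acta2* with the smooth muscle markers, whose summed level was lower in both TG libraries, and the part of those markers in these values was not tested.

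The cofactors of these enzymes are copper for the lysyl oxidases, and iron, oxoglutarate and ascorbate for the hydroxylases. Of 6 genes for copper and ascorbate handling and oxygen-dependent prolyl hydroxylation, 0 were called by limma or voom and 2 had an unadjusted p under 0.05, with a median of 0.35. *Slc2a1*, the glucose transporter that also carries oxidized ascorbate, had the highest value at 0.69 (adjusted p = 0.0554) and *Egln1* the lowest at -0.19, and both genes also stand in the hypoxia list. Over all 9 lists, with each gene counted once, 2 of 62 tested genes were called down and 0 up, where 0.469% and 0.607% of all tested genes were. An unadjusted p under 0.05 was found for 23 of the 62 genes and for 19.6% of all tested genes. The median log2 fold change over these genes was -0.16.

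The genes whose pattern was most like that of *Loxl2* over the 4 libraries were found by the distance between centred log2(FPKM + 0.5) values. They were *Sertad4* at a distance of 0.0856, *Def6* at 0.0860 and *Myl9*, a regulatory light chain of smooth muscle and nonmuscle myosin, at 0.0896. *Myl9* went from 1245 and 1172 FPKM in WT to 560 and 525 in TG. *Sertad4* and *Myl9* were called down at log2 fold changes of -1.12 and -1.16, and like *Loxl2* they lost their calls without any 1 library, with adjusted p-values from 0.0300 to 0.110, whereas *Def6*, at -1.15 (adjusted p = 0.0138), was not called. For *P4ha2* the nearest were *Pbx2*, *Lactb2* and *Tmem161b*, at distances of 0.0251, 0.0281 and 0.0300 and with log2 fold changes of 0.30 to 0.33, none of them called. Over 4 libraries in 2 genotypes such a likeness mainly holds the difference between the genotypes.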

How the data were processed

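Poly(A) RNA of 4 fibroblast libraries, 2 WT and 2 TG, was made into strand-specific cDNA from random primers and sequenced as read pairs. Rsubread served the authors for alignment to mm10 and for counting per gene. The authors converted the counts to the deposited FPKM values, and the authors tested the counts with DESeq. Versions are not given in the sources used here. All 4 FPKM columns were used, and 0 were left out. Groups and replicate numbers came from the sample titles.

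TG was compared with WT on log2(FPKM + 0.5) with limma 3.58.1 under R 4.3.3, using lmFit and then eBayes with its trend option. Genes averaging 0.5 FPKM or more were kept, and p-values were adjusted by Benjamini-Hochberg over all 11524 of them. The thresholds (adjusted p under 0.01, log2 fold change of at least 1) follow the study's methods. Fold changes are on the log2(FPKM + 0.5) scale, which understates changes of low genes. Percent reductions were computed from mean FPKM. Whole reads were recovered from the ratios of a gene's FPKM between libraries for 15483 of 15530 genes above 0, with the common factor set by exonic length for 425. They accounted for 98.25% to 98.41% of each library's total, and gave exact Poisson intervals at 95%. The matrix lists 6041 genes, *Loxl3* and *P4ha2* among them, with no more than 7 digits. Scripts ran in Python 3.11.15 with pandas 2.3.3 and scipy 1.17.1, and the tests were tried on simulated reads. There limma called 43 of 100 genes with a true log2 fold change of 1 in size, which equals the threshold. It called 100 of 100 genes at a size of 2, and also 8 unchanged genes. For voom these counts were 56, 99 and 0. Promoter windows came from RefSeq on GRCm38.p6. Gene positions came from RefSeq gene records, and strands, exons and identical runs came from GENCODE on the same build. Protein sequences were not analysed here.

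The 10 genes, the lists and the tests were chosen with earlier results of these data known. Besides the 10 genes, the text names every called gene of a list, the largest rise and fall in each list, markers, and the 3 genes most like *Loxl2* and *P4ha2*. Some genes were named outside this rule, among them *Egln3*, *Plod3* and the neighbours of *Loxl2*. The lists were other lysine-modifying enzymes, prolyl hydroxylation partners, collagen folding, procollagen export, procollagen processing, fibrillar substrates, hypoxia-inducible factor targets, TGF-beta targets and cofactor handling. The alternatives were pseudocounts of 1 and 0.1, all genes above 0 or those averaging 1 FPKM, eBayes without the trend, scaling to the upper quartile or by quantiles, a replicate block, each library left out, voom on recovered reads (size factors by median ratio), and thresholds of 0.05 for the adjusted p or 0.5 for the fold change.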

Additional observations from a re-analysis of the deposited data

How the results depend on the processing

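Both other thresholds are looser than those used for calls, so no call could be lost under them. The call of *Loxl2* held under both pseudocounts, the stricter filter, both rescalings and voom, at log2 fold changes of -1.27 to -1.14. It was lost, with no member then called down, in the fit of all genes above 0 (adjusted p = 0.0565), without the variance trend (0.0442) and with the replicate number as a block (0.0440). The same 3 fits called 0 genes of the pathway lists down, and 1, 6 and 8 genes down and 0, 3 and 12 up over all genes, against 54 and 70. Voom called 5 list genes down and 151 genes down and 126 up over all. An adjusted p under 0.05 gave 4 list genes down and 1 up, and 121 genes down and 229 up over all. Over the fits that left out one library, the counts ranged from 0 to 0 for members down, 0 to 1 for list genes down, 0 to 1 for list genes up, 1 to 47 for all genes down and 0 to 66 for all genes up. Quantile normalization called 55 down and 47 up and upper-quartile scaling 53 and 47, with the median of all genes at -0.01 and 0.01 in place of 0.07. The log2 fold changes of 3 uncalled members changed sign: *Lox* to -0.03 under quantile normalization, *Loxl1* to -0.09 under quantile normalization, -0.05 under upper-quartile scaling, -0.04 in voom, -0.19 without TG 1 and -0.22 without WT 2 (range with one library left out -0.22 to 0.25), and *P4ha1* to 0.0053 without WT 1 (range -0.18 to 0.0053). The cause of these shifts was not tested. The replicate numbers are not stated to pair the libraries. The differences between replicates 1 and 2 in WT and TG correlated at -0.03 across 11524 genes, which are not independent. Whether the replicate block belongs in the fit was not tested, so the loss of calls under it remains a limit. Depth limits *P4ha3* most, at 178 to 484 reads.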
